A study of Mus musculus with 6 samples.

Results

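The mitochondrial carrier family SLC25 other than the citrate carrier (CIC, gene Slc25a1) was examined in MLE12 cells depleted of Idh3α and Slc25a1. The members were all protein-coding genes of the count table whose name is Slc25a followed by a number, with Slc25a1 set aside because it was targeted. This gave 46 carriers among 54532 genes. Of these, 41 had enough counts for testing, as did 15307 genes in all. The choice used names and biotype and no measured value. Family members known under other names (Ucp1, Ucp2, Ucp3, Mtch1 and Mtch2) were not included.

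RNA-seq was performed on 6 libraries of MLE12 cells, an immortalized mouse lung alveolar epithelial line whose strain is given as C57BL/6J. In the 3 Ctrl shRNA libraries the cells received a control lentivirus at an MOI (infectious viral units per cell) of 50, labelled as an empty vector. In the 3 knockdown libraries the cells received 2 lentiviruses together, with Idh3α shRNA and with Slc25a1 shRNA, each at an MOI of 50. All 6 libraries came from infected cells and shared the change of medium after 16 h and the further 80 h of culture. As the labels give it, the knockdown cells received 2 viruses at that MOI and the control cells 1, so viral dose and knockdown cannot be told apart. The labels do not say whether libraries of a group came from separate cultures, so the p-values measure the spread between these libraries, which may be technical. The question was whether the mRNA of other carriers differs when the citrate carrier is depleted together with Idh3α, the catalytic subunit of an enzyme that acts on isocitrate in the TCA cycle.

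Most carriers of the SLC25 family sit in the inner mitochondrial membrane and move metabolites, nucleotides, cofactors and ions between the matrix and the cytosol, often as an exchange of one solute for another. Their proteins are built from repeats of one module, and each module carries a short signature that begins with proline. CIC exports citrate in exchange for malate, and neighbouring members of the family carry other di- and tricarboxylates.

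The targeted genes were lower in the knockdown libraries. Slc25a1 measured 103, 98.7 and 108 CPM (counts scaled to library size, with TMM factors) in Ctrl shRNA 1 to 3 and 68.9, 69.6 and 63.0 CPM in knockdown 1 to 3. Idh3a measured 79.8, 137 and 93.0 CPM against 58.5, 57.9 and 55.5 CPM. The groups did not overlap for either gene. The edgeR adjusted p was 0.104 for Slc25a1 and 0.254 for Idh3a with all 6 libraries, and 0.00649 and 0.0142 without Ctrl shRNA 2, at log2 fold changes of −0.66 and −0.60.

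Ctrl shRNA 2 stood apart from the other libraries before any carrier was considered. Total counts were similar, from 27273502 to 28535653 per library, but 16681 genes were detected in Ctrl shRNA 2 against 19902 to 23147 in the others. Transcripts encoded by the mitochondrial genome took 6.49% of its counts against 1.57 to 1.80%. The biological coefficient of variation estimated by edgeR was 0.263 with all libraries and 0.102 without this one. Fold changes of the carriers are therefore given with and without Ctrl shRNA 2.

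The signature itself (a proline codon, any codon, aspartate or glutamate, any 2 codons, then lysine or arginine) was searched in the longest coding sequence of each gene. At least 1 signature was found in 43 of 46 carriers and at least 3 in 26 of 46, or 56.5%. Among 21526 protein-coding genes, 5736 had at least 1 and 2.45% had at least 3. No match was found in Slc25a46, Slc25a51 or Slc25a53. Coding lengths ran from 265 to 677 codons with a median of 319. The first signature of the carrier with the largest edgeR log2 fold change, Slc25a25, is shown with its paralogs, followed by the mitoferrins and by Slc25a1 for comparison. Capitals mark the 6 signature codons, with 6 codons on each side, from the mouse GRCm38 annotation (GENCODE M21).
Slc25a25: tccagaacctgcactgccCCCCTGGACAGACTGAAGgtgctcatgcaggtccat
Slc25a23: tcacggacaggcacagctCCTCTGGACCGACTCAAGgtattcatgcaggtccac
Slc25a24: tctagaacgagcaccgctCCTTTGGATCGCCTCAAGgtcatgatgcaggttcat
Slc25a41: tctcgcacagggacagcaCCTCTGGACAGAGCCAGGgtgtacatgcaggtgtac
Slc25a37: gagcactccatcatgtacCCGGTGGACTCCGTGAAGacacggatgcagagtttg
Slc25a28: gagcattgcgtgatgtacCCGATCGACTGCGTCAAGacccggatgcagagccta
Slc25a1: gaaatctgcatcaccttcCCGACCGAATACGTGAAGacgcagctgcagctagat
Over these 54 bases, 41 were identical between Slc25a25 and Slc25a23, 39 with Slc25a24 and 36 with Slc25a41, against 24 with Slc25a37, 23 with Slc25a28 and 25 with Slc25a1. The signature begins at codon 251 in Slc25a25, where the calcium-binding regulatory part of the protein precedes the carrier modules, and at codon 45 in Slc25a1.

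MLE12 cells expressed most of the 46 carriers, at levels that spanned several orders of magnitude. Compared per length as RPKM (CPM divided by gene length in kilobases), 2 carriers reached 100, 16 reached 10 and 35 reached 1. The ADP/ATP translocase Slc25a4 was the highest of these 46 at 215 ± 24.2 RPKM (SD, n = 3) in Ctrl shRNA and 181 ± 20.1 in the knockdown. The second translocase Slc25a5 followed at 165 ± 92.8 and 127 ± 11.05, where the wide control spread came from Ctrl shRNA 2. Next came Slc25a39, needed for glutathione import, at 88.6 ± 6.57 and 99.8 ± 7.03, the phosphate carrier Slc25a3 at 55.7 ± 12.7 and 53.2 ± 2.87, and the oxoglutarate/malate carrier Slc25a11 at 28.9 ± 3.72 and 27.6 ± 1.74 RPKM. Over the 6 libraries the ranges of Slc25a4 (161 to 231 RPKM) and Slc25a5 (110 to 272) overlapped, whereas those of Slc25a39 (81.1 to 105), Slc25a3 (48.0 to 70.4) and Slc25a11 (24.8 to 31.9) did not overlap one another. Slc25a1 itself stood at 47.8 ± 2.21 RPKM in Ctrl shRNA and 31.0 ± 1.70 in the knockdown.

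**Figure D1:**
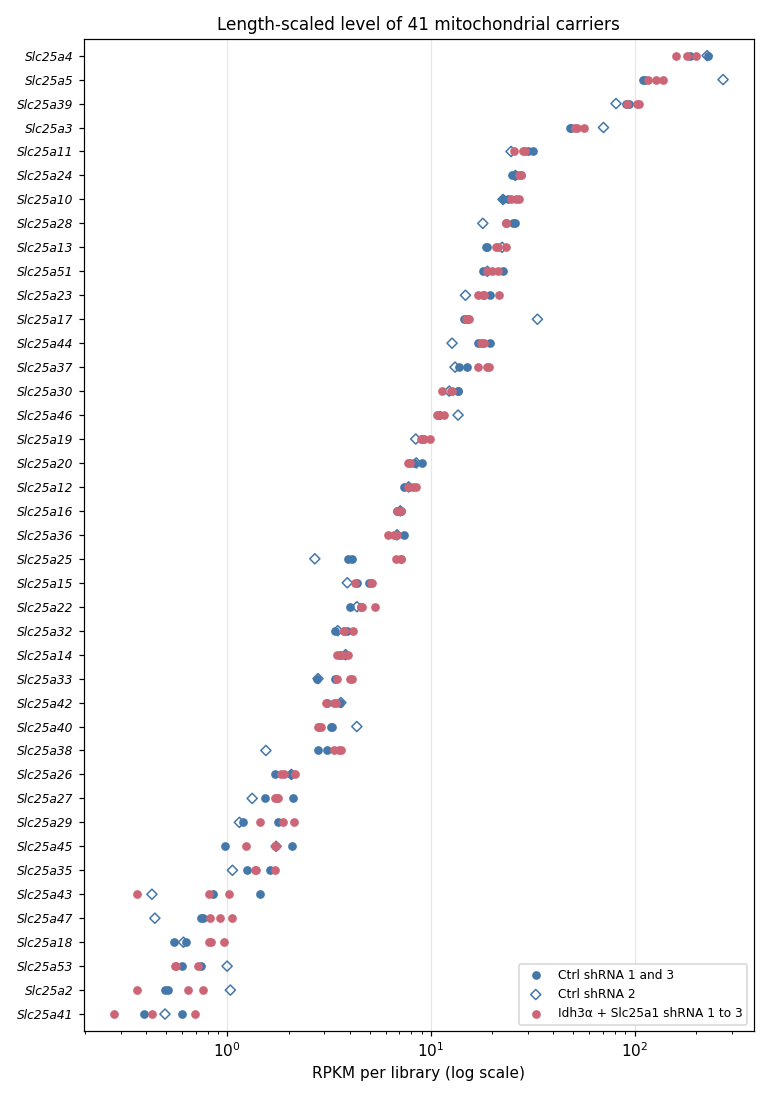
Length-scaled level (RPKM, log scale) of the 41 tested carriers, 1 row per gene ordered by mean level, with 1 point per library; blue circles are Ctrl shRNA 1 and 3, the open diamond is Ctrl shRNA 2 and red circles are knockdown 1 to 3. The points of most rows lie close together, whereas the diamond stands to the right in Slc25a5 (272 RPKM) and Slc25a17 (33.4 RPKM), and the red circles of Slc25a25 stand to the right of all blue symbols.

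The 46 carriers together took a similar part of the RNA in both groups by their sum in CPM, but not by their share of raw counts. The carriers summed to 2635 ± 219 CPM in Ctrl shRNA and 2575 ± 59.7 CPM in the knockdown (n = 3 each). As a share of raw counts they made up 0.247 ± 0.0364% and 0.276 ± 0.00544%. Each knockdown library (0.280, 0.277 and 0.270%) lay above each control library (0.269, 0.205 and 0.267%) by this share. Ctrl shRNA 2 was the lowest library by this share, at 0.205% against 0.267 to 0.280% in the other 5, but the highest by the sum in CPM, at 2885 against 2477 to 2638, so its place depends on the scaling. Slc25a4 and Slc25a5 together held 51.8% of the carriers' summed RPKM in Ctrl shRNA 2 and 35.8 to 42.8% in the others.

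With all 6 libraries, 0 of 41 carriers passed an edgeR adjusted p of 0.05 in either direction. Across all genes this test called 0.0588% higher and 0.00653% lower in the knockdown, so few calls were available for any gene. At an unadjusted p under 0.05, Slc25a25 and Slc25a37 were higher and Slc25a40 was lower, which is 2 and 1 of 41 against 7.47% and 6.65% of all genes. When Ctrl shRNA 2 was left out, edgeR called 1 carrier higher, Slc25a25, and 0 lower, against 1.11% and 0.675% of all genes. At an unadjusted p under 0.05, this fit gave Slc25a13, Slc25a25 and Slc25a37 higher and Slc25a11 and Slc25a40 lower, or 3 and 2 of 41 against 9.54% and 10.3%. DESeq2 with all 6 libraries called 2 carriers higher, Slc25a25 and Slc25a37, and 0 lower, against 1.55% and 0.958%. Limma with sample quality weights called the same 2 carriers higher and 0 lower, against 8.67% and 6.34%. DESeq2 without Ctrl shRNA 2, which gave an adjusted p for 39 carriers, also called Slc25a25 and Slc25a37 higher and 0 lower, against 3.93% and 2.65%.

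Grouped by role, edgeR called 0 carriers in any group with all libraries (0.0588% and 0.00653% of all genes), and without Ctrl shRNA 2 it called 1, in the adenine nucleotide and phosphate group (1.11% and 0.675%). At these shares, groups of 2 to 9 genes without a call are near the background, and nothing is read from them.

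The carriers' differences were small on the whole. The log2 fold changes (knockdown over Ctrl shRNA) ran from −0.47 to 0.96 with a median of 0.018, beside a median of −0.0092 over all genes tested. Their median absolute size was 0.127, against 0.215 over all genes, which were not matched to the carriers for level. Without Ctrl shRNA 2 the range was −0.66 to 0.79 and the median 0.029, beside −0.015, with absolute sizes of 0.128 and 0.160. The fold change was above 0 in 23 of 41 carriers with all libraries (48.7% of all genes) and in 24 of 41 without Ctrl shRNA 2 (47.3%). The sign differed between these fits for 9 carriers.

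The 95% intervals of single carriers, not adjusted for their number, describe the precision between these libraries only. Without Ctrl shRNA 2, the 95% interval lay within 2-fold in either direction for 37 of 41 carriers (76.7% of all genes) and within 1.5-fold for 32 of 41 (60% of all genes). With all libraries these counts were 31 (64.5%) and 25 (45.2%). The 4 carriers whose interval reached past 2-fold without Ctrl shRNA 2 were Slc25a2, Slc25a18, Slc25a41 and Slc25a43, each with a mean under 1 RPKM over the 6 libraries. In bulk RNA, less transcript per cell and fewer cells expressing a gene cannot be told apart.

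**Figure D2:**
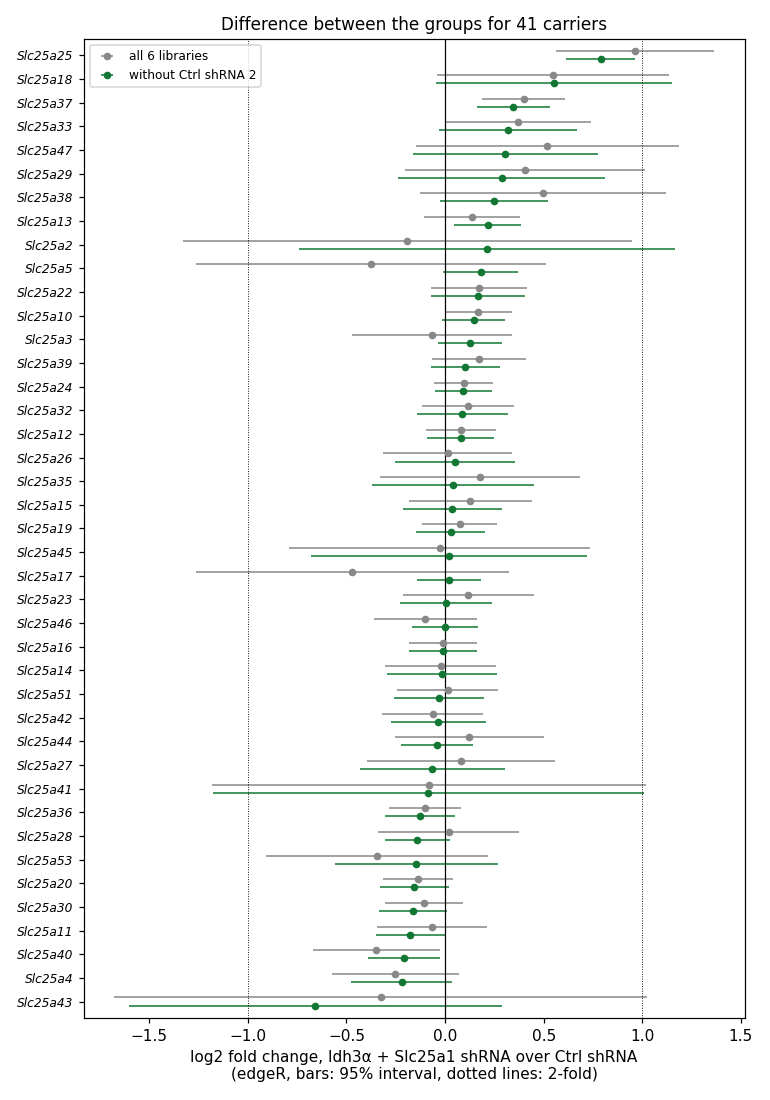
Log2 fold change of the 41 tested carriers in the knockdown over Ctrl shRNA (edgeR), with bars for the 95% interval, in grey with all 6 libraries and in green without Ctrl shRNA 2; dotted lines mark 2-fold. Slc25a25 stands at 0.96 and 0.79 at the top, most green intervals cross 0, and the grey intervals of Slc25a5 and Slc25a17 reach far to the left of the green ones.

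Slc25a25 (ENSMUSG00000026819, minus strand of chromosome 2, 32414487 to 32451445, mm10) had the largest edgeR log2 fold change in size of the 41 carriers tested, with and without Ctrl shRNA 2. It encodes an ATP-Mg/phosphate carrier that is switched on by calcium and adjusts the adenine nucleotide pool of the matrix. It measured 32.3, 21.2 and 30.9 CPM in Ctrl shRNA 1 to 3 and 52.7, 56.2 and 55.9 CPM in knockdown 1 to 3. Every knockdown library lay above every control library, by a margin far wider than the spread within the knockdown. The log2 fold change was 0.96 ± 0.17 (SE) or 1.95-fold, with an edgeR adjusted p of 0.178. With Ctrl shRNA 2, the lowest value, left out, it rose by 0.79 ± 0.08 or 1.73-fold, with an adjusted p of 0.00366. DESeq2 gave adjusted p-values of 9.44e-04 with all libraries and 8.05e-13 without Ctrl shRNA 2, and quality weights gave 0.00101. The exact permutation p was 0.1, the smallest that 3 against 3 libraries allow, which any groups without overlap give.

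The 5′ end of Slc25a25 overlaps Naif1, a gene on the opposite strand, by 379 of its 7862 exon bases (4.82%). Whether the counting used strand is not given in the sources used here. Naif1 measured 9.82, 5.67 and 10.9 CPM in Ctrl shRNA and 12.6, 12.3 and 13.9 CPM in the knockdown, with edgeR adjusted p-values of 0.358 and, without Ctrl shRNA 2, 0.194. Naif1 was thus higher in each knockdown library too, with 1885 counts in all, and its part in the Slc25a25 result was not tested.

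RefSeq lists 3 start sites for Slc25a25 among the promoter windows available for 35 of the 46 carriers (45 windows, GRCm38.p6). The window upstream of the innermost start, which lies inside the gene in sequence without an annotated exon, is printed because it holds a full cAMP response element, TGACGTCA, in capitals 150 bases before the start. It covers chr2:32424067-32424316 on the minus strand.
Slc25a25: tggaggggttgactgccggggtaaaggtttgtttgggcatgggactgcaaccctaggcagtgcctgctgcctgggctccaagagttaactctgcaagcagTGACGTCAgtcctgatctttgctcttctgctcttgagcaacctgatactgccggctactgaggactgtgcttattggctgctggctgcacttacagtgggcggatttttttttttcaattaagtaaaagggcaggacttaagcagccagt
This element was one of 6 motifs searched on both strands, and the window was chosen for printing after the match was seen. It was found in 2 of 45 carrier windows, those of Slc25a25 and Slc25a36, and in 1.55% of 32851 windows of the same length (250 bases). Its first 5 letters, TGACG, which the full element contains, were found in 11 of 45 and 17.8%, and the GC box GGGCGG in 31 of 45 and 32.7%. The E-box CACGTG was found in 7 of 45 and 6.02%, the NF-kB motif in 3 of 45 and 7.25%, and the CArG box in 2 of 45 and 1.47%. Windows of 1 gene can overlap and share a site, so by gene these matches lie in 2 (cAMP response element), 10 (TGACG), 24 (GC box), 6 (E-box), 3 (NF-kB) and 1 (CArG box) of the 35 carriers. Slc25a36, a pyrimidine nucleotide carrier, had a log2 fold change of −0.10 with all libraries and −0.13 without Ctrl shRNA 2 (adjusted p = 0.389). The other windows of Slc25a25 held 0 full elements. A match describes the letters only.

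**Figure D3:**
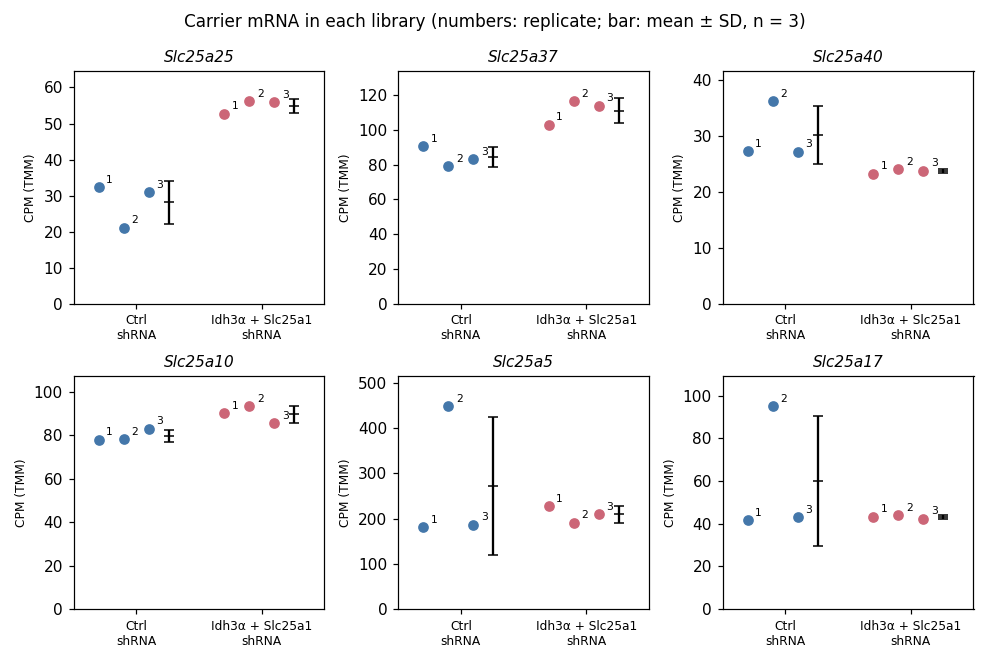
CPM of 6 carriers in each library (blue, Ctrl shRNA 1 to 3; red, knockdown 1 to 3; numbers give the replicate), with the mean and SD of each group as a bar (n = 3). The knockdown points of Slc25a25, Slc25a37 and Slc25a10 all lie above the control points, those of Slc25a40 all lie below, and in Slc25a5 and Slc25a17 the control library 2 alone lies far above the other 5.

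Slc25a25 has 3 paralogs among the ATP-Mg/phosphate carriers with enough counts to test. Slc25a24, the ATP-Mg/phosphate carrier with the highest level, measured 89.4, 89.1 and 86.3 CPM in Ctrl shRNA and 93.2, 94.99 and 94.5 CPM in the knockdown. These groups did not overlap, but the log2 fold change was 0.09 with all libraries (95% interval −0.06 to 0.25, adjusted p = 0.457) and 0.09 without Ctrl shRNA 2 (−0.05 to 0.24, adjusted p = 0.453). Slc25a23 measured 103, 78.3 and 95.1 CPM against 96.6, 114 and 89.8 CPM, overlapping groups with a log2 fold change of 0.12 and, without Ctrl shRNA 2, of 0.003. Slc25a41 was at 0.371 to 0.923 CPM in the 6 libraries, and its log2 fold changes of −0.08 (95% interval −1.18 to 1.02) and −0.09 (−1.18 to 1.01) were too imprecise to place it against Slc25a25. The difference in response between the paralogs was not tested. Per length, Slc25a25 (3.57 ± 0.770 RPKM in Ctrl shRNA, 6.99 ± 0.247 in the knockdown) was below Slc25a24 (25.7 ± 0.502 and 27.5 ± 0.273) and Slc25a23 (17.4 ± 2.41 and 18.9 ± 2.34) in both groups.

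The ADP/ATP translocases exchange matrix ATP for cytosolic ADP, and the phosphate carrier supplies the phosphate for ATP synthesis. Slc25a4 measured 440, 535 and 543 CPM in Ctrl shRNA and 472, 378 and 424 CPM in the knockdown, with overlapping groups. Its log2 fold change was −0.25 (adjusted p = 0.387) with all libraries and −0.22 (adjusted p = 0.316) without Ctrl shRNA 2. Slc25a5 measured 181, 448 and 186 CPM against 227, 191 and 209 CPM. Here Ctrl shRNA 2 decided the sign, since the log2 fold change was −0.38 with it and 0.18 (adjusted p = 0.272) without it. Slc25a3 behaved alike at 266, 391 and 271 CPM against 291, 313 and 282 CPM, with log2 fold changes of −0.07 and 0.13 (adjusted p = 0.353). Without Ctrl shRNA 2, every knockdown value of Slc25a5 and Slc25a3 exceeded both control values, yet neither passed the test. For Slc25a5, 33.8% of the 50-base words of its transcripts also occur in 9 other genes, so its level is uncertain, whereas the share was 0% for Slc25a4. Of the 9 carriers in this group 7 were tested. The fold change was above 0 in 3 with all libraries (48.7% of all genes), where 0 were called, and in 5 without Ctrl shRNA 2 (47.3%), where Slc25a25 was the 1 called higher (1.11%).

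Carriers of di- and tricarboxylates transport the substrates nearest to citrate. The dicarboxylate carrier Slc25a10, which exchanges malate or succinate for phosphate, measured 78.0, 78.1 and 83.0 CPM in Ctrl shRNA and 90.1, 93.2 and 85.5 CPM in the knockdown. The groups did not overlap, with a log2 fold change of 0.17 (95% interval −0.003 to 0.34, adjusted p = 0.355) and of 0.14 without Ctrl shRNA 2 (95% interval −0.01 to 0.30, adjusted p = 0.288). The exact permutation p of 0.1 follows from the lack of overlap and adds nothing to it. The oxoglutarate/malate carrier Slc25a11 measured 63.8, 52.5 and 67.6 CPM against 61.3, 59.9 and 54.4 CPM. Its groups overlapped through Ctrl shRNA 2 alone, and its log2 fold change was −0.07 with this library and −0.18 (95% interval −0.35 to −0.002, adjusted p = 0.247) without it. Slc25a11 shares 189 of 2120 exon bases (8.92%) with Rnf167 on the opposite strand. Rnf167 measured 33.8, 23.6 and 37.3 CPM in Ctrl shRNA and 30.0, 33.8 and 26.0 CPM in the knockdown. Its log2 fold change was −0.08 with all libraries and −0.26 without Ctrl shRNA 2 (edgeR adjusted p = 0.856 and 0.259). The part of Rnf167 in the Slc25a11 values was not tested.

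The remaining members of this group were scarce. Slc25a35, a relative of the dicarboxylate carriers without an assigned substrate, measured 5.94, 3.90 and 4.60 CPM against 5.01, 6.30 and 5.09 CPM, with a log2 fold change of 0.18 and, without Ctrl shRNA 2, of 0.04 (95% interval −0.37 to 0.45). The oxodicarboxylate carrier Slc25a21 gave 1 count over all libraries. Slc25a34 gave 0 to 3 counts per library. Thus only 3 of the 5 genes could be tested.

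The aspartate/glutamate carriers of the malate-aspartate shuttle were both well expressed. Slc25a12 measured 57.5, 57.0 and 54.3 CPM in Ctrl shRNA and 59.6, 62.3 and 56.4 CPM in the knockdown, with a log2 fold change of 0.08 in both fits (adjusted p = 0.586 and 0.591). Slc25a13 measured 70.7, 84.9 and 71.4 CPM against 81.3, 88.9 and 78.9 CPM. Its log2 fold change was 0.13 with all libraries (adjusted p = 0.508) and 0.22 without Ctrl shRNA 2 (95% interval 0.05 to 0.38, adjusted p = 0.169), where its groups no longer overlapped. Among the 9 amino acid carriers all were tested, and 8 had a fold change above 0 (48.7% of all genes). Their median log2 fold change was 0.13, beside −0.0092 over all genes, and 0.21 without Ctrl shRNA 2, beside −0.015. The glutamate carrier Slc25a18 had the second largest log2 fold change of the 41 carriers tested, 0.55 in both fits (adjusted p = 0.357 and 0.285). It stood at 1.20, 1.16 and 1.05 CPM against 1.55, 1.85 and 1.58 CPM, so the groups did not overlap but the counts were few. It shares 32 exon bases with the abundant Atp6v1e1 on the opposite strand (25562 counts in all). The glycine carrier Slc25a38, which serves heme synthesis, measured 7.62, 4.25 and 8.47 CPM against 9.71, 9.95 and 9.17 CPM, with log2 fold changes of 0.50 and 0.25 (adjusted p = 0.385 and 0.291).

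Slc25a37, mitoferrin-1 (ENSMUSG00000034248, minus strand of chromosome 14, 69241848 to 69285112, mm10), which brings iron into the matrix, was the other carrier past a threshold. It measured 90.5, 79.1 and 83.2 CPM in Ctrl shRNA and 103, 117 and 114 CPM in the knockdown, again without overlap. The log2 fold change was 0.40 ± 0.09 or 1.32-fold with all libraries (edgeR adjusted p = 0.245) and 0.35 ± 0.08 without Ctrl shRNA 2 (adjusted p = 0.0804), so edgeR called it in neither fit. DESeq2 called it with adjusted p-values of 0.0494 and 0.00639, and quality weights gave 0.0143. The exact permutation p of 0.1 again follows from the lack of overlap. Mitoferrin-2, Slc25a28, whose signature sequence is printed above beside that of Slc25a37, measured 39.0, 27.2 and 38.5 CPM against 35.3, 35.3 and 35.6 CPM, with log2 fold changes of 0.02 and −0.14 (adjusted p = 0.961 and 0.313).

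Slc25a39 and Slc25a40 are the carriers needed for glutathione import. Slc25a40 measured 27.3, 36.3 and 27.2 CPM in Ctrl shRNA and 23.3, 24.1 and 23.8 CPM in the knockdown. It was the carrier with non-overlapping lower values and the lowest unadjusted p in that direction, at 0.0373. Its log2 fold change was −0.35 (adjusted p = 0.35) with all libraries and −0.21 (95% interval −0.39 to −0.03, adjusted p = 0.199) without Ctrl shRNA 2. The far more abundant Slc25a39 measured 251, 224 and 258 CPM against 283, 289 and 253 CPM, with overlapping groups and log2 fold changes of 0.17 and 0.10 (adjusted p = 0.406 and 0.491).

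All 8 carriers of coenzymes, vitamins and acylcarnitine were tested, and without Ctrl shRNA 2 their log2 fold changes ran from −0.16 to 0.09. The exception with all libraries was Slc25a17, a peroxisomal carrier of CoA, FAD and NAD, with the most negative log2 fold change of the 41 carriers tested at −0.47 (adjusted p = 0.479). It measured 41.5, 94.96 and 42.95 CPM in Ctrl shRNA and 43.2, 43.9 and 42.2 CPM in the knockdown. The difference lay in Ctrl shRNA 2 alone, and without it the log2 fold change was 0.02 (95% interval −0.14 to 0.18, adjusted p = 0.904). The carnitine/acylcarnitine carrier Slc25a20, which admits fatty acids for oxidation, measured 39.8, 41.1 and 43.9 CPM against 37.8, 37.5 and 38.2 CPM. These groups did not overlap, with a log2 fold change of −0.14 (adjusted p = 0.389) and −0.16 without Ctrl shRNA 2 (adjusted p = 0.296). Slc25a16, related to CoA transport, ranged from 32.5 to 34.2 CPM over all 6 libraries.

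Among the pyrimidine nucleotide carriers, Slc25a33 measured 5.20, 5.26 and 6.38 CPM against 7.73, 6.53 and 7.52 CPM, which did not overlap, with log2 fold changes of 0.37 and 0.32 (adjusted p = 0.354 and 0.289). The 3 uncoupling protein relatives, Slc25a14, Slc25a27 and Slc25a30, had log2 fold changes from −0.11 to 0.08 with all libraries and from −0.16 to −0.014 without Ctrl shRNA 2. Of the 6 members without an assigned place, 5 were tested. With all libraries the largest difference among them was that of Slc25a47 at 0.52, with 2.23, 1.32 and 2.27 CPM against 2.76, 3.16 and 2.46 CPM, and it was 0.30 without Ctrl shRNA 2 (adjusted p = 0.388 and 0.442). Slc25a43, at 0.641 to 2.58 CPM in the 6 libraries, had log2 fold changes of −0.33 and, without Ctrl shRNA 2, of −0.66 (95% interval −1.60 to 0.29, adjusted p = 0.410), the largest in size of the 5 tested in that fit. With limma quality weights its log2 fold change was −0.89 (adjusted p = 0.155), larger in size than the 0.81 of Slc25a25.

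Across the carriers tested, the knockdown values lay entirely above the control values in 9 of 41 carriers and entirely below in 2. The corresponding shares of all genes were 14.7% and 10.7%. Without Ctrl shRNA 2 the counts were 12 and 5, against 20.4% and 17.5%. Besides the carriers described, the 9 include the glutamate carrier Slc25a22 at 27.1, 26.0 and 24.1 CPM against 27.6, 32.0 and 27.3 CPM, with a log2 fold change of 0.17 in both fits (adjusted p = 0.419 and 0.409).

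Ctrl shRNA 2 moved carriers in both directions. It held the highest of the 6 values in 8 carriers and the lowest in 14, against 34.4% and 38.6% of all genes. On the log2 scale it differed from the mean of Ctrl shRNA 1 and 3 by −1.43 (Slc25a43) to 1.29 (Slc25a5), with a median of −0.045 over the carriers and −0.024 over all genes. It was more than 0.5 above in Slc25a2, Slc25a3, Slc25a5, Slc25a17 and Slc25a53, and more than 0.5 below in Slc25a25, Slc25a28, Slc25a38, Slc25a43, Slc25a44 and Slc25a47.

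**Figure D4:**
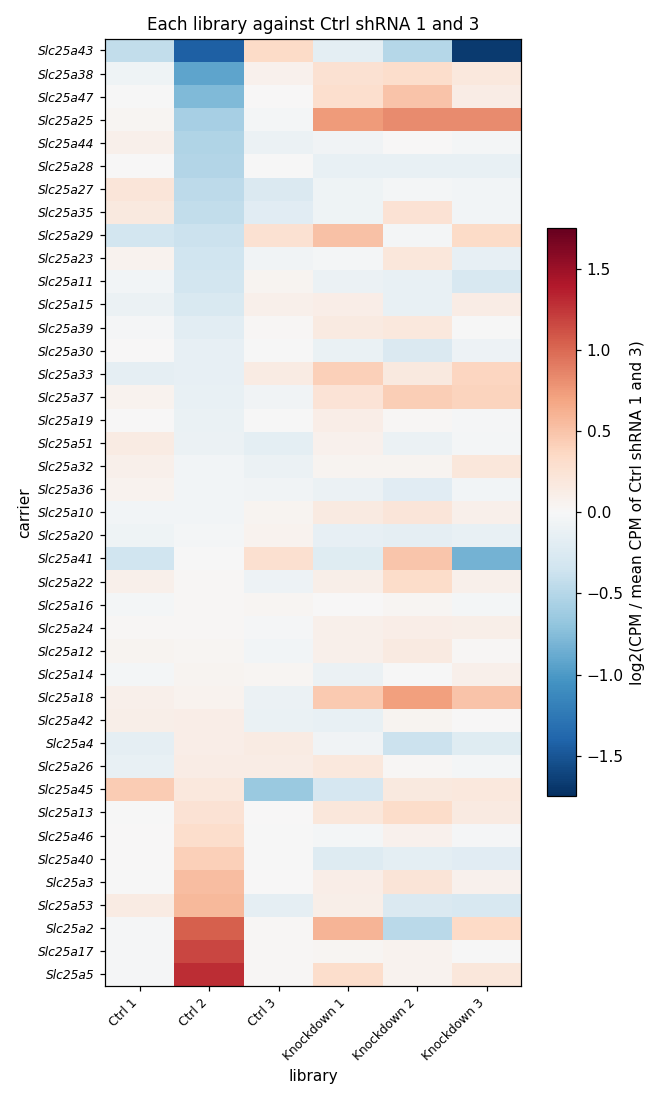
Each library against the mean of Ctrl shRNA 1 and 3, as log2 of the CPM ratio (red higher, blue lower), for the 41 tested carriers ordered by the value of Ctrl shRNA 2. The Ctrl 2 column runs from −1.43 to 1.29, whereas in the row of Slc25a25 the 3 knockdown cells are red and Ctrl 2 is blue.

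The 5 carriers with too few counts for a test were Slc25a21, Slc25a31, Slc25a34, Slc25a48 and Slc25a54. The germ line ADP/ATP translocase Slc25a31 gave 0 to 6 counts per library and Slc25a54 gave 1 count in all. Slc25a48 gave 0 counts in every library, which allows up to 3 counts or 0.0969 to 0.152 CPM, for counting error only.

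Other mitochondrial membrane proteins, most of them transporters, were counted for comparison from a list of 19 genes, of which 16 were tested. This list includes the family members without a Slc25a name. With all libraries edgeR called 0 of them in either direction. The cation/proton exchanger Letm1 was called higher by edgeR without Ctrl shRNA 2 (1.11% of all genes) and by DESeq2 with all libraries (1.55%). Letm1 measured 49.5, 50.1 and 47.3 CPM in Ctrl shRNA and 70.2, 72.9 and 64.2 CPM in the knockdown, with a log2 fold change of 0.50 (adjusted p = 0.161) and of 0.50 without Ctrl shRNA 2 (adjusted p = 0.022), and DESeq2 gave 7.34e-04 and quality weights 0.00397. Of 16 genes of the machinery that imports carriers into the inner membrane, 15 were tested, and edgeR called 0 with all libraries. Without Ctrl shRNA 2 the channel of the outer membrane translocase, Tomm40, rose by 0.48 on the log2 scale (adjusted p = 0.0229), from 50.2, 35.7 and 55.6 CPM to 72.9, 77.5 and 72.1 CPM. DESeq2 with all libraries called the chaperone Timm8b lower (adjusted p = 0.0494, 0.958% of all genes), where Ctrl shRNA 2 stood at 348 CPM and the other 5 at 23.1 to 66.0 CPM. The median log2 fold change of the import genes was −0.55 with Ctrl shRNA 2 and −0.039 without it.

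The labelled cell type was checked against markers. Of 12 markers of lung epithelium and alveolar type 2 cells, 7 were tested, and their sum was 837 to 899 CPM in Ctrl shRNA and 784 to 838 CPM in the knockdown. Surfactant protein C (Sftpc) measured 44.1, 97.3 and 50.9 CPM against 35.9, 28.5 and 27.2 CPM. Its log2 fold change was −1.07 (edgeR adjusted p = 0.315) with all libraries and −0.65 without Ctrl shRNA 2, where it was called lower (adjusted p = 0.0438, 0.675% of all genes). The lung transcription factor Nkx2-1 measured 343, 324 and 341 CPM against 302, 299 and 277 CPM (adjusted p = 0.353 with all libraries and 0.128 without Ctrl shRNA 2, quality weights 0.0294). Epcam was also lower in each knockdown library and Cdh1 higher (adjusted p = 0.375 and 0.393 with all libraries), and Sftpd was at 0 in every library. Sftpa1 and Cldn4 stayed under 10 counts in every library. The leukocyte markers summed to 1.84 to 1.92 CPM in Ctrl shRNA and 2.41 to 2.73 CPM in the knockdown, with Ptprc and Adgre1 at 0, and the 3 endothelial markers summed to under 1 CPM. The 4 fibroblast markers summed to 346 to 1233 CPM in Ctrl shRNA, the highest in Ctrl shRNA 2, and 317 to 345 CPM in the knockdown. They were almost all Dcn, whereas Pdgfra measured 2.68, 2.23 and 2.23 CPM against 3.43, 3.72 and 3.91 CPM (edgeR adjusted p = 0.312, quality weights 0.0312). The part of these markers in the carrier results was not tested.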

How the data were processed

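RNA-seq of MLE12 cells was compared between 3 Ctrl shRNA and 3 knockdown libraries, grouped by the sample labels. The authors deposited raw counts of reads per gene and FPKM values, 1 column per library (0 columns unused). The submitters' processing notes name HISAT2 2.0.5, StringTie 1.3.3b, featureCounts 1.5.0-p3 and the build mm10, and the use of strand is not given in the sources used here. Here counts were tested with edgeR 4.0.16 (R 4.3.3; filterByExpr, TMM factors, quasi-likelihood test, all 6 libraries) over all genes with Benjamini-Hochberg adjustment. RPKM was computed from the counts, the deposited gene lengths and TMM factors, with RPKM levels the only ones compared between genes. Alternatives were DESeq2 1.42.0 (missing adjusted p-values kept missing), limma 3.58.1 with quality weights or on log2(FPKM + 1) and log2(FPKM + 0.1), other scalings and filters, a replicate block and each library left out. The scripts were tested on simulated data.

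The 6 libraries held 27273502 to 28535653 counts. Coordinates were identical to GENCODE M21 for 43 of 46 carriers. Carriers were named when called, when non-overlapping at an unadjusted p under 0.05, as the 5 highest in RPKM, as the 3 largest and 3 smallest fold changes, as di- and tricarboxylate or aspartate/glutamate carriers, or when untested. Other carriers were chosen after their values were seen. Members, lists, motifs and tests were chosen with earlier results of these data known. No 2 libraries of the same group agreed within sampling noise.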

Additional observations from a re-analysis of the deposited data

How the results depend on the processing

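The count of carriers called higher was 0 with edgeR and all libraries, 2 with DESeq2, 2 with DESeq2 without Ctrl shRNA 2, 2 with quality weights, and 0 to 1 when each library was left out in turn (1 without Ctrl shRNA 2). The count called lower was 0 throughout, with 0 to 0 over the left-out libraries. Slc25a25 kept a positive log2 fold change over 18 settings (0.79 to 1.096, adjusted p from 8.05e-13 to 0.675), as did Slc25a37 (0.35 to 0.56, adjusted p from 0.00639 to 0.675). The median log2 fold change of the carriers, 0.018, became 0.20 with library size only, where the median of all genes moved from −0.0092 to 0.16. It was 0.097 with quality weights, 0.064 and 0.074 with log2(FPKM + 1) and log2(FPKM + 0.1) over 35 carriers, and 0.029 to 0.10 over the left-out libraries. Of 15 named carriers with 251 values under other settings, 4 reversed sign in 10 values. With library size only, Slc25a3 was at 0.16 and Slc25a11 at 0.081. DESeq2 without Ctrl shRNA 2 gave 0.13 for Slc25a3, 0.19 for Slc25a5 and 0.026 for Slc25a17, and quality weights gave 0.10 for Slc25a3 and 0.18 for Slc25a5. Leaving out each library gave −0.17 to 0.13 for Slc25a3, −0.60 to 0.18 for Slc25a5 and −0.68 to 0.019 for Slc25a17, the positive ends without Ctrl shRNA 2. The causes were not tested. Same-numbered libraries had correlations of −0.155, −0.0920 and 0.0430 between their deviations from the group means. With 3 libraries per group, these values cannot decide whether the numbers pair the libraries. A replicate block left 0 carriers higher and 0 lower with a median of 0.037. Over all genes, edgeR called 9 higher and 1 lower, DESeq2 218 and 135, edgeR without Ctrl shRNA 2 175 and 106, and quality weights 1327 and 971.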

Other observations

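The 46 carriers lie on 18 chromosomes, and 4 pairs are neighbours within 50000 bases. Slc25a29 and Slc25a47 are 162 bases apart on chromosome 12, at mean levels of 1.596 and 0.792 RPKM. Slc25a41 and Slc25a23 are 2056 bases apart on chromosome 17, at 0.481 and 18.2 RPKM. Slc25a54 and Slc25a24 are 6461 bases apart on chromosome 3, at 0.00316 and 26.6 RPKM. Slc25a43 and Slc25a5 are 18448 bases apart on chromosome X, at 0.820 and 146 RPKM. Slc25a35 shares 1151 of 3677 exon bases (31.3%) with Rangrf on the opposite strand, the largest such overlap among the carriers, and Rangrf had 13 counts in all.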
